A study of Mus musculus with 8 samples.

Results

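The Agilent mouse array used here carries, beside its probes for annotated genes, a large set of probes designed to genomic intervals. Whether these intervals lie outside annotated genes was not examined here. The files name each of these probes, without a gene, only by an interval of the mm9 mouse genome and, for nearly all of them, a suffix F or R, read here as the forward or reverse strand. Of 55681 probes that are not controls, 16194 carry such a name. The 7188 interval probes described here were selected on the signal of the untreated cells: each was well above background on all 3 arrays titled 0h. Of these, 7086 had a usable value on every array, and counts of interval probes below are over those 7086. They consist of 3414 probes with suffix F, 3668 with suffix R and 4 without a suffix, and they cover 2567 of the 3537 intervals on the array. The intervals were 62 to 538251 bp long, with a median of 13676 bp. Because the untreated arrays chose the probes, every comparison of interval probes with untreated cells below is a description without a test. The 4OHT and vehicle arrays did not enter the choice, and their comparison was tested. The spread used in that test also drew on the untreated arrays.

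The samples were mouse embryonic stem cells (ESCs), pluripotent cells grown in every group in medium with the cytokine LIF, which helps to keep them pluripotent, and 250 nM of the FGF receptor inhibitor PD173074. The untreated group had 3 cultures, whose titles name ActoD but whose descriptions call the cells untreated. The vehicle group had 2 cultures, which received 5 µM actinomycin D and, 30 min later, ethanol for 4 h. The 4OHT group had 3 cultures, which received the same actinomycin D and then 250 nM 4OHT, 4-hydroxytamoxifen, for 4 h. The labels give no strain, genotype or tamoxifen-responsive construct, and the title of the series names ERK-regulated mRNA degradation as its subject. The series' design text speaks of 3 biological replicates per condition, and 2 vehicle arrays were analysed here. Nothing in the labels pairs the cultures.

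Actinomycin D binds DNA and stops transcription by all nuclear RNA polymerases, with RNA polymerase I the most sensitive, so that RNA lost during the treatment is not replaced. Transcripts from intergenic DNA include long intergenic non-coding RNAs, antisense and enhancer RNAs, precursors of microRNAs and unannotated ends of genes. Many are retained in the nucleus, and many are degraded by the nuclear exosome, a complex of 3′-to-5′ ribonucleases. Others, such as structured or polyadenylated nuclear RNAs, can be long-lived. The files pair no interval with a gene and no mm9 annotation was used here, so the intervals are given by position and suffix alone.

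All signals are log2 processed intensity minus the 75th percentile of the same array, called log2 signal below. A probe whose RNA was lost at the same rate as that percentile therefore shows a difference of 0. The choice of scale sets the sign of many values: with the arrays scaled to spike-in controls, the median feature's difference was lower by 1.28 between vehicle and untreated, by 1.58 between 4OHT and untreated and by 0.30 between 4OHT and vehicle. Each probe has its own response, so signal was used to match probes and not to compare amounts of RNA. In these bulk samples, fewer cells and less RNA per cell cannot be told apart. On the untreated arrays 47.1 to 67.0% of interval spots were well above background, against 39.9 and 45.4% on the vehicle arrays and 36.1 to 41.5% on the 4OHT arrays. Untreated and vehicle arrays lay in different rows of 1 slide and the 4OHT arrays on another slide, so 4OHT and slide cannot be told apart. All 12 embryonic stem cell markers examined, among them Pou5f1, Nanog and Sox2, were well above background on all 8 arrays. With vehicle 6 of these 12 rose and 4 fell (limma, adjusted p under 0.05), where 41.5% of all features rose and 15.9% fell. The rises were 0.30 to 1.15, and all 6 stood below untreated on the spike-in scale, at −0.98 to −0.12. Sox2, Klf4, Fgf4 and Zfp42 stood at −3.54, −3.61, −3.63 and −1.06. The summed log2 signal of the 12 was 71.09 to 72.77 in untreated cells, 63.63 to 63.98 with vehicle and 63.26 to 63.89 with 4OHT. Of 10 fibroblast markers for feeder cells, 6 passed the filter on dim probes and 5 were well above background on every untreated array, while Col3a1, Postn, Lum and Dcn did not pass the filter. The summed log2 signal of the 6 was −8.55 to −7.25 in untreated cells, −7.63 to −6.72 with vehicle and −6.82 to −4.84 with 4OHT, and their part in the results was not tested. Of 8 markers of primitive endoderm, a lineage that can arise in such cultures, all passed the filter, and with vehicle 2 rose and 5 fell (limma, adjusted p under 0.05), where 41.5% of all features rose and 15.9% fell. Their summed log2 signal was −20.3 to −16.0 in untreated cells, −27.7 to −27.6 with vehicle and −31.5 to −26.7 with 4OHT. Only 3 of these 8 markers were well above background on all 8 arrays, so the counts and sums include signals near background.

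Relative to the 75th percentile, interval probes as a whole stood about where mRNA probes did with vehicle, and somewhat below them with 4OHT. The median difference between vehicle and untreated over the 7086 interval probes was 0.37, with quartiles of −0.27 and 0.72, and it was −0.90 on the spike-in scale. For the 14402 features with RefSeq mRNA accessions (NM_) that were above background in untreated cells, the median was 0.35 (−0.93 on the spike-in scale), and for 539 features with non-coding RNA accessions (NR_) it was 0.29. Over all 28491 features tested it was 0.40. The medians between 4OHT and untreated were 0.18 for interval probes, 0.33 for NM_ features and 0.13 for NR_ features (−1.40, −1.25 and −1.45 on the spike-in scale). The interval probes had a median log2 signal of −3.0, −2.78 and −3.01 in the untreated cultures, −2.67 and −2.72 with vehicle, and −2.87, −2.90 and −2.83 with 4OHT. The 2 vehicle arrays were thus above all others, and the 4OHT arrays lay within the untreated range.

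Some interval probes lay far to either side. A difference below −2 log2 units, or 4-fold, between vehicle and untreated was seen for 315 interval probes (4.45%) and 723 NM_ features (5.02%). A difference above 1 log2 unit was seen for 589 interval probes (8.31%) and 1024 NM_ features (7.11%). With limma and Benjamini-Hochberg adjustment, 2607 interval probes (36.8%) passed an adjusted p of 0.05 as higher with vehicle than untreated, where 41.5% of all features did. The corresponding count of lower probes was 930 (13.1%), where 15.9% of all features passed. For 4OHT against untreated the counts were 2271 higher (32.0%, against 41.0% of all features) and 1191 lower (16.8%, against 18.7%). Nothing is read from these 4 counts, because the same untreated arrays chose the probes.

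Interval probes were dim, with a median untreated log2 signal of −2.97 against 0.72 for NM_ features. Set side by side in bins of 1 log2 unit of untreated signal, the vehicle medians of interval probes lay above those of NM_ features in all bins from −4 upward that held at least 20 of each. With 4OHT this held from −3 upward, and the gap was −0.04 in the bin from −4 to −3. With vehicle the gap in median difference was 0.16 in the bin from −3 to −2, 0.22 from −2 to −1, 0.31 from −1 to 0, 0.32 from 1 to 2 and 0.38 from 2 to 3. It was −0.07 in the bin from −5 to −4 and 0.05 from −4 to −3, where 1486 and 1979 of the interval probes lay. Weighted by the number of interval probes, the gap came to 0.11 for vehicle and 0.03 for 4OHT. When the bins and the probes were taken from untreated replicates 1 and 2 and the baseline from replicate 3 alone, the gaps were 0.12 and 0.05. With spike-in scaling they were 0.11 and 0.03. The 4OHT gap turned to −0.0088 when every NM_ probe was kept in place of 1 per gene, and to −0.0054 without 4OHT replicate 3.

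**Figure D1:**
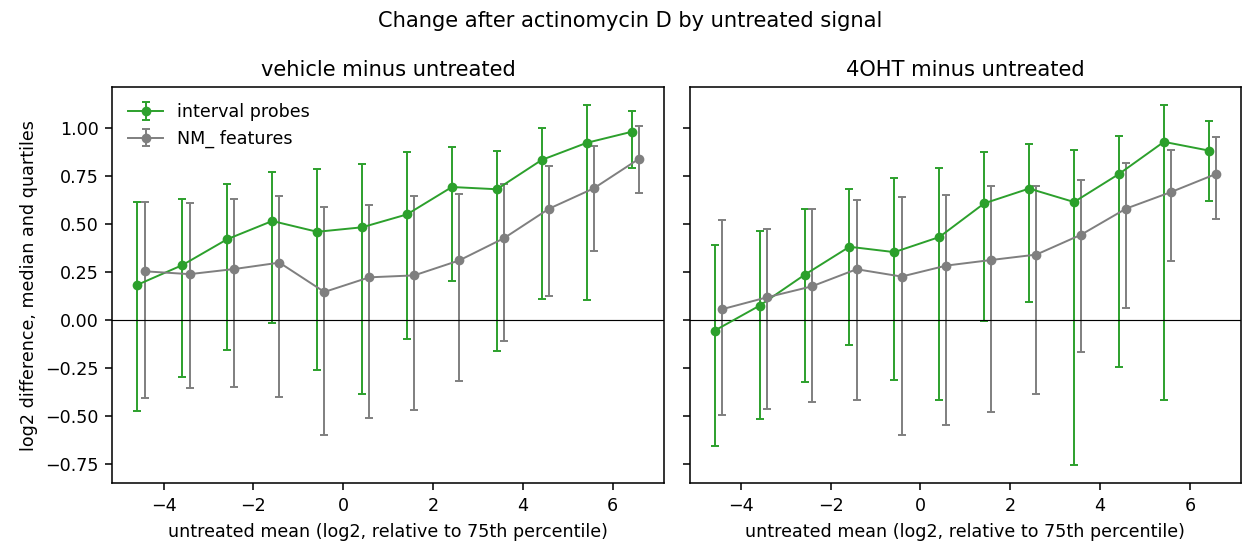
Median log2 difference from untreated (points) with quartiles (bars) against the untreated log2 signal, in bins of 1 log2 unit, for interval probes (green) and NM_ features (grey), with vehicle on the left and 4OHT on the right. In the bin from 2 to 3 the vehicle medians are 0.69 for interval probes and 0.31 for NM_ features, whereas in the dimmest bin shown the interval probes lie lower.

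Bright interval probes included a few large losses, which came from a single stretch of chromosome 17 described below. In the bin from 4 to 5, 26.4% of 53 interval probes stood more than 1 log2 unit above untreated with vehicle, against 7.20% of 986 NM_ features, while 9.43% stood more than 2 units below, against 2.43%. In the bin from 5 to 6, 13.0% of 23 interval probes and 2.52% of 595 NM_ features stood more than 2 units below. All 5 such interval probes of the first bin and all 3 of the next lay in chr17:39960567-39992817, so the shares below −2 rest on 1 locus. From 7 to 8 the shares below −2 were 0 of 14 interval probes and 1.20% of NM_ features, and from 8 to 9 the shares above 1 were 57.1% of 7 and 77.6% of 116. At the dim end the array limited what could be seen: no vehicle array was well above background for 675 interval probes (9.53%) and 416 NM_ features (2.89%), and 4982 interval probes were well above background on all 8 arrays. Among those 4982 the median difference between vehicle and untreated was 0.53.

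The 6 brightest interval probes, counting each interval and suffix once, all stood above untreated on the percentile scale and below it on the spike-in scale. The brightest, chr11:22681800-22707775_R, read 8.66, 8.35 and 8.38 in untreated cells, 9.73 and 9.53 with vehicle, and 9.30, 9.56 and 9.48 with 4OHT. Its vehicle arrays did not overlap the untreated arrays, and the difference was 1.17 ± 0.14 (standard error of the fit, as for every ± below), or −0.11 on the spike-in scale. The others were chr6:116123643-116124550_F, chr17:48068261-48087905_F, chr7:108209996-108216032_R, chr17:17481706-17482457_R and chr14:78924115-78938125_F. Their differences were 0.75 to 1.25, and −0.53 to −0.03 on the spike-in scale. With 4OHT the 6 probes stood −0.21 to −0.01 from vehicle, and none passed the test (limma adjusted p from 0.53 to 0.98).

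Losses and gains are ranked here with each interval and suffix represented by its brightest probe, so that a dimmer probe of an interval can show a larger difference. On that ranking the largest loss was at chr13:22110479-22116629_R, an interval of 6151 bp. The probe read 0.55, 0.89 and 0.77 in untreated cells, and between −6.92 and −6.41 on the 5 actinomycin D arrays, none of which was well above background. The signal was therefore at least 44.2-fold lower with vehicle and at least 36.7-fold lower with 4OHT. These bounds set the untreated mean against the lowest signal well above background on each of the dim arrays. At chr19:12079745-12088620_R the probe read −1.43, −1.30 and −1.64 in untreated cells and −6.50 and −6.79 with vehicle, at least 9.66-fold lower. At chr12:110944403-110988678_R it was at least 6.22-fold lower with vehicle, at −7.14 and −5.70 against −2.22, −2.27 and −1.80 in untreated cells. The other 3 of the 6 largest losses so ranked, at −5.64, −5.26 and −5.24, came from a single stretch of chromosome 17.

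The 6 largest gains on the same ranking were led by chr4:141527564-141547339_F, which read 3.30, 2.78 and 3.58 in untreated cells, 5.95 and 5.89 with vehicle, and 6.27, 6.17 and 6.29 with 4OHT. Its difference of 2.70 ± 0.22 between vehicle and untreated remained 1.42 on the spike-in scale. At chr5:35975265-35982561_R the difference was 2.49 ± 0.12 (1.21 on the spike-in scale), and at chr2:71205705-71226510_F it was 2.33 ± 0.19 (1.06). The probe at chr2 was dim in untreated cells (−4.24, −4.31 and −4.64) and well above background on every array. The remaining 3, at chr16:39984031-40081556_R, chr4:3745750-3756200_F and chr7:50509139-50526856_R, differed by 1.83, 1.83 and 1.66 (0.55, 0.55 and 0.38 on the spike-in scale). At chr4:3745750-3756200_F the gain rested on vehicle replicate 1, which read −0.88 against −2.91 on replicate 2 and −3.90, −3.29 and −3.95 in untreated cells.

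**Figure D2:**
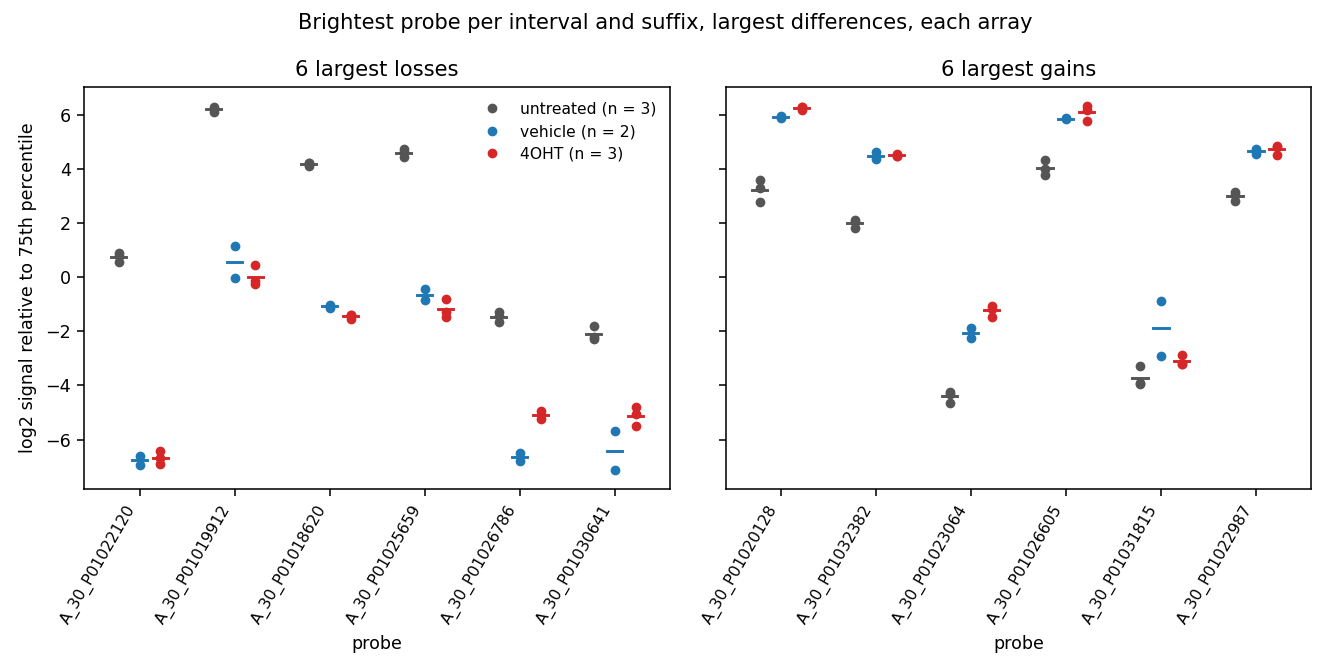
Log2 signal on each array (points) with the group mean (bar) for the 6 largest losses (left) and gains (right) from untreated to vehicle among interval probes whose arrays do not overlap, taking the brightest probe of each interval and suffix. The leftmost probe drops from a mean of 0.74 to below −6 on all 5 actinomycin D arrays, and 4OHT arrays follow vehicle arrays for most probes.

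Probes of the same interval and suffix differed less than probes at large, but many intervals held both signs on the percentile scale. In 1023 combinations of interval and suffix with 3 or more probes, 43.9% of the variance of the difference between vehicle and untreated lay within combinations (SD 0.67 within, against 1.01 over all 4074 probes). All probes were above 0 in 409 combinations and below 0 in 170, and 444 held both signs. These signs depend on the scale, and they were not counted on the spike-in scale, where the median feature's difference was lower by 1.28. In 6 combinations every probe stood below −2, in 38 every probe stood below −1, and in 14 every probe stood above 1. The probes of an interval may overlap in sequence, which was not examined here. The intervals described next were chosen after their values were seen.

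The stretch chr17:39960567-39992817 held 20 interval probes, 10 of each suffix, and the suffixes parted. All 10 R probes, in 3 overlapping intervals, were lower with vehicle than untreated, with differences of −5.64 to −2.63 (median −5.11). The brightest, A_30_P01019912, read 6.23, 6.10 and 6.28 in untreated cells and 1.15 and −0.02 with vehicle, with the 4OHT arrays at 0.46, −0.26 and −0.14. The 10 F probes differed among themselves, 5 above 0 and 5 below −1. The 3 probes of chr17:39983902-39985688_F stood at 0.05, 0.18 and 0.21 above untreated (−1.23 to −1.06 on the spike-in scale): A_30_P01023029 read 7.82, 7.62 and 7.74 in untreated cells, 7.88 and 7.99 with vehicle and 7.67, 7.78 and 7.76 with 4OHT. In chr17:39982023-39983277_F, 1 probe stood at 0.04 (−1.23 on the spike-in scale), whereas A_30_P01030943 stood at −3.11 and A_30_P01027833 at −2.51. A_30_P01030943 read 5.95, 5.93 and 5.97 in untreated cells and 2.87 and 2.81 with vehicle. The probes of this interval and suffix thus differed in loss by more than the spread between arrays.

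At chrX:50087925-50101700 the 2 suffixes went apart across 13 probes. For the 7 R probes, vehicle minus untreated was −5.51 to −2.91 (median −4.24). Of these, 6 were well above background on no vehicle array and were at least 2.28- to 9.78-fold lower. The brightest R probe, A_30_P01025328, read −1.11, −1.44 and −1.0 in untreated cells and −6.81 and −4.17 with vehicle. The 6 F probes of the same interval differed by −0.18 to 1.01 (median 0.62), and by −1.45 to −0.27 on the spike-in scale. The 3 probes of chr14:115443612-115445950_F, an interval of 2339 bp, differed by −2.71, −2.78 and −3.12. Of these, A_30_P01029746 read 3.03, 2.69 and 2.82 in untreated cells, 0.29 and −0.16 with vehicle and −0.04, −0.30 and −0.22 with 4OHT.

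The opposite pattern was seen at chr19:5798135-5802597. All 6 R probes, in the intervals chr19:5798135-5800557 and chr19:5801802-5802597, stood 1.47 to 1.71 above untreated with vehicle and 0.20 to 0.43 above on the spike-in scale. The brightest, A_30_P01031754, read 7.61, 7.36 and 7.43 in untreated cells, 9.18 and 9.06 with vehicle and 9.08, 9.07 and 9.08 with 4OHT. The neighbouring chr19:5795690-5797464_F held 3 probes at 0.30 to 1.16, all below untreated on the spike-in scale (−0.98 to −0.12). At chr1:134237581-134248506_R all 5 probes differed by 1.65 to 2.67 (median 2.10), and by 0.37 to 1.40 on the spike-in scale. They were dim, with a median untreated signal of −3.19, and well above background on all 8 arrays.

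**Figure D3:**
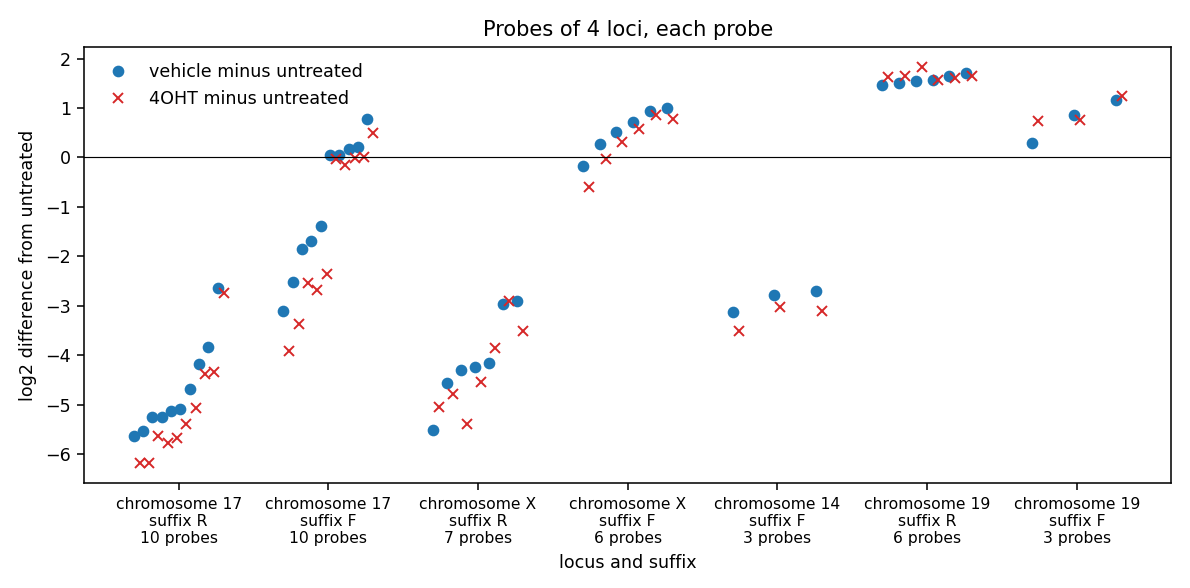
Log2 difference from untreated for each probe of 4 loci, split by suffix, with vehicle as circles and 4OHT as crosses. All 10 R probes on chromosome 17 and all 7 R probes on chromosome X lie below −2, the F probes of the same loci reach above 0, and the 6 R probes on chromosome 19 lie between 1.47 and 1.71 with vehicle.

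The 315 probes that stood more than 2 log2 units below untreated came from 206 combinations of interval and suffix, and 77 of them lay in 10 windows of 1 Mb that each held 5 or more. The window at 110 Mb of chromosome 12 held the most, with 17 of 68 interval probes in 8 combinations. The F probe A_30_P01029814 of chr12:110909258-110913909 was at least 16.2-fold lower there, and the other probes of that interval and suffix differed by −3.47 and −1.80. The window's R probes had a median of −0.91 (28 probes) and its F probes one of −0.22 (40 probes). Next came the windows at 39 Mb of chromosome 17 (12 of 20 probes), 50 Mb of chromosome X (9 of 23) and 115 Mb of chromosome 14 (7 of 20). By chromosome, the share of probes below −2 was 0.752% on chromosome 9 at the lowest and 8.60% on chromosome 12 at the highest.

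Above 1 kb, longer intervals had higher medians with vehicle, without matching for untreated signal. The median difference between vehicle and untreated was 0.18 for 443 probes of intervals from 1 to 3 kb, 0.28 from 3 to 10 kb, 0.39 from 10 to 30 kb, 0.45 from 30 to 100 kb and 0.48 for 279 probes of intervals over 100 kb. Probes of intervals up to 1 kb stood at 0.38, outside that order. The share below −2 went from 5.64% between 1 and 3 kb to 2.51% above 100 kb.

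The suffix of the name went with a small difference in loss. The median difference between vehicle and untreated was 0.44 for F probes and 0.29 for R probes, a gap of 0.15, and between 4OHT and untreated it was 0.26 and 0.09. A difference below −2 was seen for 122 F probes (3.57%) and 193 R probes (5.26%). In log2 signal, the F median exceeded the R median by 0.08, 0.10 and 0.05 in the untreated cultures, by 0.19 and 0.21 with vehicle and by 0.23, 0.21 and 0.22 with 4OHT. The untreated arrays lay below all 5 actinomycin D arrays. The gap was not seen at every signal: in bins of 1 unit from −5 to 5 it was 0.20, 0.14, 0.11, 0.05, 0.14, 0.29, 0.11, −0.02, 0.10 and −0.36, with no steady order. It narrowed to 0.05 when only probes well above background on all 8 arrays were kept or when the brightest probe stood for each interval and suffix, and to 0.03 with normexp background correction. R probes were more often lost to background, with 408 (11.1%) well above background on no vehicle array against 267 F probes (7.82%).

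**Figure D4:**
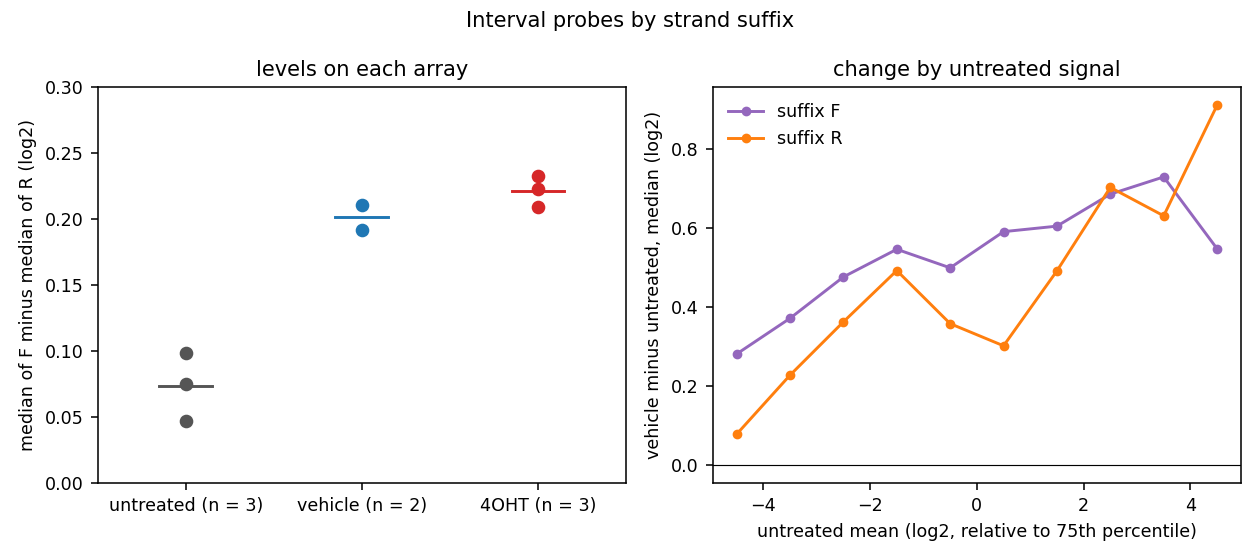
Left, the F median minus the R median of log2 signal on each array (points) with the group mean (bar). Right, the median difference between vehicle and untreated for F and R probes against untreated log2 signal. The untreated arrays lie at 0.05 to 0.10 and the actinomycin D arrays at 0.19 to 0.23, while on the right F lies above R in every bin from −5 to 2.

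Of 1062 intervals probed with both suffixes, 695 gave probes above background for both, 143 for F alone, 153 for R alone and 71 for neither. Where only F was detected the median difference between vehicle and untreated was 0.53, and where only R was detected it was 0.14. In the 695 intervals with both, the F median was above the R median in 372 (53.5%), with a median gap of 0.06 and quartiles of −0.31 and 0.56. Over these 695 intervals F and R differences correlated weakly (Pearson r = 0.16, a description over intervals that share all arrays). In the 6 intervals whose suffixes differed most in untreated signal, the bright suffix stood 0.32 to 1.08 above untreated with vehicle and the dim suffix 0.26 to 0.97. At chr13:108548345-108679004, for example, the R probe read 7.27, 6.95 and 6.87 in untreated cells and 8.11 and 8.03 with vehicle, and the F probe read −4.34, −4.42 and −4.31, then −3.49 and −4.13.

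4OHT against vehicle asks whether 4OHT changed what remained 4 h after transcription was blocked. With limma and Benjamini-Hochberg adjustment over 28491 features, 142 interval probes (2.0%) were lower and 31 (0.437%) higher with 4OHT, where 2.58% and 0.92% of all features passed. Among NM_ features 447 (3.10%) were lower and 195 (1.35%) higher. Nothing about interval probes is read from these shares, because the probes were dimmer than NM_ features and are themselves among all features. Whether signal affected the calls was not tested. The median difference of interval probes was −0.09 (−0.39 on the spike-in scale) against −0.02 (−0.32) for NM_ features. Lower calls were made for 87 F probes (2.55%) and 55 R probes (1.5%). At an unadjusted p of 0.05, 1340 interval probes passed in either direction. The calls depended on the fit. With only the vehicle and 4OHT arrays, 7 interval probes were lower and 2 higher, and with spike-in scaling 345 were lower and 9 higher. Leaving out vehicle replicate 1 left 11 lower and 12 higher.

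Of the 142 lower calls, 54 were well above background on no 4OHT array and 70 on all 8 arrays, and their differences ran from −2.67 to −0.52. The 6 largest that the naming rule allowed were all of the dim kind. At chr16:57811599-58042454_F the probe read −2.38 and −2.61 with vehicle and −5.36, −5.36 and −4.11 with 4OHT, at least 3.82-fold lower (limma adjusted p = 0.023). At chr8:27133090-27133734_R it read −4.08 and −3.99, then −6.68, −6.47 and −6.22, at least 1.34-fold lower (limma adjusted p = 0.0019). For chr4:55981894-55986587_F, chr10:94850300-94855601_R, chr7:89433125-89464275_R and chrX:121004130-121007360_R the bounds were 2.25-, 1.18-, 1.63- and 1.88-fold (limma adjusted p from 0.0042 to 0.017). With normexp background correction the 6 differences shrank to −0.49 to −0.22, and only chr16:57811599-58042454_F still passed (limma adjusted p = 0.047, against 0.11 to 0.32 for the others).

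In the fit over all groups, only 3 combinations of interval and suffix had 3 or more probes called lower, and none had 3 called higher. At chr9:14460976-14488051_F, an interval of 27076 bp, all 5 probes were bright and all 5 were lower with 4OHT, at −0.93 to −0.69 (limma adjusted p from 0.017 to 0.04). The brightest, A_30_P01020075, read 5.77, 5.68 and 5.58 in untreated cells, 6.10 and 5.89 with vehicle, and 5.34, 5.09 and 5.17 with 4OHT, a difference of −0.80 ± 0.12 (limma adjusted p = 0.023). The 4OHT arrays lay below all others for this probe, while vehicle stood 0.10 to 0.32 above untreated over the 5. The 3 R probes of the same interval did not pass (limma adjusted p from 0.06 to 0.86), nor did the 2 probes of chr9:14480441-14483362_F, which lies inside it (0.33 and −0.19; limma adjusted p of 0.47 and 0.55). All 5 calls were lost without vehicle replicate 1, 4OHT replicate 2 or 4OHT replicate 3, with median scaling or no scaling, with no filter, in the fit of only the groups compared, and with the replicate number as a block. Without vehicle replicate 2, 1 call was kept.

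At chr7:16633756-16634410_F, an interval of 655 bp, all 3 probes were lower with 4OHT. A_30_P01019086 read 0.37, 0.56 and 0.25 in untreated cells, −0.63 and −0.92 with vehicle and −2.10, −2.40 and −2.33 with 4OHT. Its 3 groups did not overlap, and the difference between 4OHT and vehicle was −1.51 ± 0.15 (limma adjusted p = 0.009). The other probes stood at −1.5 ± 0.25 and −1.07 ± 0.18 (limma adjusted p = 0.03 for both). All 3 were already lower with vehicle than untreated, at −1.36 to −1.17, and none was called without vehicle replicate 1, with no scaling, in the fit of only the groups compared or with the replicate block. Without 4OHT replicates 2 or 3, or untreated replicates 1 or 3, 1 of the 3 was called.

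At chr17:39960567-39992817_F, on the stretch described above, 3 of 4 probes were lower with 4OHT, with differences of −1.0 to −0.68 (limma adjusted p from 0.011 to 0.033). In the interval chr17:39982023-39983277_F inside it, 2 of 3 probes were lower, at −0.85 and −0.80 (limma adjusted p of 0.01 and 0.0091). These 5 were the F probes that already stood below untreated with vehicle, at −3.11 to −1.39. The other 5 F probes, which stood at 0.04 to 0.78 between vehicle and untreated, were at −0.28 to −0.08 between 4OHT and vehicle and did not pass (limma adjusted p from 0.34 to 0.77). The 10 R probes stood at −0.65 to −0.11 and did not pass either (limma adjusted p from 0.11 to 0.70). A_30_P01030943 read 2.87 and 2.81 with vehicle and 2.02, 2.0 and 2.09 with 4OHT, a difference larger than the spread of either group. None of the 5 was called without vehicle replicate 1, with median scaling, no scaling or no filter, in the fit of only the groups compared or with the replicate block. Of the 3 probes of the longer interval, 1 was called without any 1 of the 4OHT replicates or without untreated replicates 1 or 3, and both called probes of the shorter interval were kept in each of these settings.

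Higher calls were fewer. At chr17:38132217-38157667_R the probe read −6.93 and −4.85 with vehicle and −2.84, −3.0 and −2.93 with 4OHT, at least 3.49-fold higher (limma adjusted p = 0.035). Neither vehicle array was well above background there, and the call was lost in 12 of 20 settings. Its untreated arrays read −2.94, −2.94 and −2.56, overlapping the 4OHT arrays. At chr16:94775095-94775634_F the 4OHT arrays read −3.69, −3.80 and −3.12 against −4.75 and −4.62 with vehicle, at least 2.14-fold higher (limma adjusted p = 0.048). No vehicle array was well above background there either. The other 4 that the rule named, chr7:6302922-6306477_F, chr4:41261959-41267670_F, chr15:61919018-61935580_F and chr4:12159175-12175725_R, stood at 0.67 to 1.05 (limma adjusted p from 0.018 to 0.047). At chr4:12159175-12175725_R the groups were ordered, with −1.74, −1.67 and −1.83 in untreated cells, −1.0 and −0.67 with vehicle and −0.30, −0.13 and −0.06 with 4OHT. The chr16 call was lost in 17 of the 20 settings and the other 4 in 11 to 16. At chr19:12079745-12088620_R, which also passed, no actinomycin D array was well above background, so the difference between 4OHT and vehicle was not measured.

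**Figure D5:**
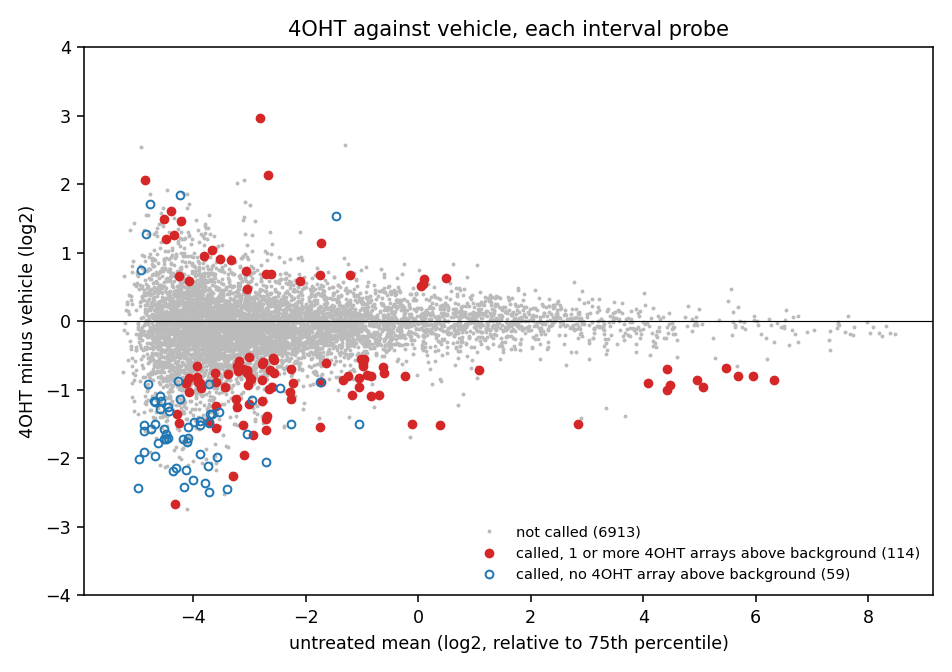
Difference between 4OHT and vehicle for each interval probe against its untreated log2 signal, with called probes in red (114 with a 4OHT array well above background) and open blue (59 with none). Open circles lie at the dim end, and a few red points between −1.0 and −0.68 lie above a signal of 4.

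Annotated transcripts were set beside these values. Of 22 short-lived immediate early mRNAs, which encode transcription factors and feedback regulators, 19 fell with vehicle, with a median of −2.81, beside 15.9% of all features called lower (limma, adjusted as above, for the counts in this paragraph). Myc fell by 4.71 ± 0.13 (limma adjusted p = 3.5e-06). Of 36 named long non-coding and nuclear RNAs, 20 were tested, of which 8 fell and 4 rose with vehicle, beside the same 15.9% and 41.5% (median −0.22, and −1.5 on the spike-in scale). Mir17hg, the host transcript of a microRNA cluster, fell by 2.85 ± 0.15 and Dancr, a host of a small nucleolar RNA, by 2.34 ± 0.19 (limma adjusted p of 3.6e-05 and 0.00019). The probes kept for Malat1 and Neat1, RNAs of nuclear speckles and paraspeckles, fell by 1.76 ± 0.26 and 1.61 ± 0.19 (limma adjusted p of 0.0013 and 0.00051). Each value rests on the 1 probe kept for that gene and need not hold for other parts of its transcript. Whether intervals described above lie in these genes was not examined, so interval probes and these genes may measure the same RNA. Rmrp, the RNA of a ribonucleoprotein that cleaves RNA, rose by 1.09 ± 0.13, and Terc, the telomerase RNA, by 0.94 ± 0.15 (−0.18 and −0.34 on the spike-in scale). Between 4OHT and vehicle the median of the 20 was −0.10. Of 29 nuclear RNA decay factors, 24 were tested, of which 13 rose and 4 fell with vehicle, beside 41.5% and 15.9% of all features (median 0.36, and −0.91 on the spike-in scale). Exosc1, a subunit of the exosome cap, fell by 1.05 ± 0.14 with vehicle. Exosc1 and Exosc4 were the only 2 of the 24 called lower with 4OHT than with vehicle (limma adjusted p of 0.017 and 0.014). Of all features, 2.58% were called lower. Whether these 2 calls held in other settings was not examined. Dis3, the main catalytic subunit of the exosome, rose by 0.79 ± 0.10 with vehicle (limma adjusted p = 0.00061) but was lower on the spike-in scale, at −0.49.

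The threshold that chose the probes was one of detection on each array and did not divide them by mean untreated signal. The 3 dimmest probes inside it had untreated signals of −5.60 to −4.91, and only chr17:17462450-17488725_F among them was well above background after actinomycin D. The 3 brightest left out, each above background on 2 of 3 untreated arrays, spread widely over those arrays, as at chr9:113648970-113715170_R with −1.27, −2.79 and −5.00.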

How the data were processed

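Total RNA was amplified and labelled from a small input, then hybridised to 1-colour Agilent mouse arrays, 8 in all, per the labels' protocols. The deposited scanner files hold spot intensity values read with Feature Extraction 11.0.1.1 on the mm9 design, per the file headers. The deposited value table equalled the processed signal within rounding for 100% of spots. The labels name Cy5, whereas the files hold the green channel.

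Processed signals were log2-transformed and each array's 75th percentile was subtracted. Controls were left out, 1 probe was kept per gene symbol, and every interval probe was kept. A probe was tested if well above background on every array of a group. All 3 groups were fitted with limma 3.58.1 in R 4.3.3 (lmFit, eBayes, 5 residual degrees of freedom), with Benjamini-Hochberg adjustment over 28491 features, a threshold of 0.05, and a check on simulated data. Of all probes, 466 lacked a usable value on some array and were dropped, 190 of them interval probes.

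Named probes are the 6 brightest, the 6 largest losses and gains with vehicle among probes whose arrays did not overlap, and the 6 largest called differences each way with 4OHT, not overlapping and above background throughout the brighter group. The rule adds the 6 intervals whose suffixes differed most and the 3 probes on each side of the threshold. Each interval and suffix counts once, by its brightest probe. The interval probes and gene lists were chosen with earlier results of these data known, and other intervals were named after their values were seen. The alternatives varied scaling, background correction, filters, probe choice, variance model, replicate block and arrays. Probe sequences were not used here. The number of arrays limits the precision, and the median standard error was 0.17 for the comparisons with vehicle.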

Additional observations from a re-analysis of the deposited data

How the results depend on the processing

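The level of loss depends on scaling, and the count of 4OHT calls on nearly every choice. With spike-in scaling the medians over interval probes became −0.90 for vehicle and −1.40 for 4OHT, with 9 higher and 4627 lower calls against untreated for vehicle, 9 and 6592 for 4OHT, and 9 and 345 for 4OHT against vehicle. With no scaling the medians were −0.73 and −0.88, with 12 and 3048, 41 and 4255, and 4 and 18 calls. Normexp gave medians of 0.59 and 0.53, a strand gap of 0.0289, and 5765 and 367, 5696 and 420, and 14 and 45 calls. Median scaling gave a 4OHT median of 0.33, 1614 higher calls for vehicle, and 18 and 56 for 4OHT against vehicle, where quantile normalization gave 20 and 58. The 6 brightest probes reversed with spike-in scaling, to −0.11, −0.53, −0.11, −0.0299, −0.14 and −0.19 in the order of the text. The probe at chr6:116123643-116124550_F also reversed with quantile normalization (−0.34) and with no scaling (−0.35), and that at chr14:78924115-78938125_F with no scaling (−0.014). With 1 probe per interval and suffix, the vehicle median was 0.47, the strand gap 0.0544, and the calls 1460 and 337, 1241 and 438, and 14 and 76. Probes above background on all 8 arrays gave medians of 0.53 and 0.40, gaps to NM_ features of 0.27 and 0.20, a strand gap of 0.0517, 422 and 512 lower calls against untreated, and 15 and 70 calls for 4OHT against vehicle. That choice drops probes lost to background on the interval side alone, and with the same filter on NM_ features the gaps were 0.15 and 0.06. The 4OHT gap turned to −0.0088 with every probe kept or every NM_ probe, and to −0.0042 with probes above background on 2 of 3 untreated arrays. With untreated replicate 3 as the baseline the medians were 0.49 and 0.32. A 2-fold minimum left 551 higher calls for vehicle, 567 for 4OHT, and 14 and 76 for 4OHT against vehicle. For 4OHT against vehicle, no filter gave 3 and 9 calls and the fit of only those groups 2 and 7.

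Leaving out 1 array at a time gave vehicle medians of 0.33 to 0.43, 4OHT medians of 0.13 to 0.25, gaps of 0.11 to 0.12 and −0.0054 to 0.0422, and strand gaps of 0.13 to 0.17. Calls ranged from 2066 to 2649 higher and 739 to 963 lower for vehicle, and from 1935 to 2370 and 1043 to 1208 for 4OHT. For 4OHT against vehicle they ranged from 6 to 30 higher and 11 to 101 lower. The lower calls numbered 11 without vehicle replicate 1, 48 without vehicle replicate 2, 36 without 4OHT replicate 2, and 57 and 58 without untreated replicates 1 and 3. None of 41 named 4OHT calls was kept in all 20 settings, and the cause was not tested.

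With the replicate number as a block, 2 interval probes were higher and 1 lower with 4OHT than with vehicle. Nothing in the labels says that the numbers pair the samples, and the arrays could not settle it. Deviations of same-numbered arrays correlated at −0.03 and −0.19 between untreated and vehicle, and at −0.04, −0.14 and 0.11 between untreated and 4OHT. Between vehicle and 4OHT they correlated at 0.36 and 0.22, against −0.36, −0.22, −0.20 and 0.20 for different-numbered arrays. With 2 vehicle arrays, the deviations of 1 mirror those of the other, so these signs are tied together. No test within a slide was possible for 4OHT, which had a slide of its own.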
